A study of Mus musculus with 10 samples.

Results

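A set of 8 genes that mark bile duct epithelium and liver progenitor cells were followed in livers lacking NDRG3. They are the keratins *Krt7*, *Krt19* and *Krt23*, the surface and junction genes *Epcam*, *Cldn4* and *Prom1*, the transcription factor *Sox9* and the secreted protein gene *Spp1*. The members were taken by symbol from the 24052 gene symbols counted in each library, with no use of their values. The study sequenced RNA from 5 wild-type and 5 Ndrg3 LKO livers of C57BL/6 mice that ate ad libitum, each liver giving 1 library, and the comparison of the genotypes asks what loss of NDRG3 changes in the liver. In Ndrg3 LKO mice, both *Ndrg3* alleles had exon 4 flanked by recombination sites and were cut by a Cre recombinase driven by the albumin promoter. The albumin promoter is active in hepatocytes, and in the fetal cells that give rise to both hepatocytes and bile duct cells, so the cell types that lost *Ndrg3* cannot be read from the genotype. The methods describe a backcross of the floxed line to C57BL/6N. The controls were wild-type littermates, whose alleles at the floxed locus and whose litters are not given in the sources used here. The methods give an age of 8 to 10 weeks and a legend gives 10 to 12 weeks. Both groups share the strain, the feeding and the library kit, and the RNA came from whole liver tissue.

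Cholangiocytes, the cells that line bile ducts, build their cytoskeleton from keratins that adult hepatocytes hardly make, and they seal the duct with tight junction claudins. They are a minor cell type of the liver, so their transcripts are scarce in RNA from whole tissue. When hepatocytes are injured, small ducts can multiply in what is called a ductular reaction, and cells with biliary and progenitor markers then appear at the edge of the portal tract. Several of these genes are also made by other cells, such as *Spp1* by macrophages and *Krt19* by the mesothelium that covers the liver.

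Each library held between 20872262 and 30450057 counts, at which 3 counts equal 0.0985 to 0.144 CPM, which scales the counts of a gene to a common library size. All levels are given as CPM after TMM, a scaling of library sizes that sets the bulk of genes level between livers. The targeted gene was lower in every Ndrg3 LKO liver (7.07 to 9.15 CPM) than in every wild-type liver (15.9 to 21.9 CPM), with a log2 fold change of -1.20 (SE 0.13, edgeR adjusted p = 3.87e-05). On the first principal component, which held 68.7% of the variance, the wild-type range was -49.9 to -43.1, that of Ndrg3 LKO replicates 1 to 4 was 51.1 to 56.6, and replicate 5 of that group was at 14.1. Results are therefore also given without replicate 5 where that changes a call. The methods give 5 livers per group, but the legends of the metabolome and RNA sequencing figures give 5 wild-type and 4 Ndrg3 LKO livers. Which Ndrg3 LKO liver those figures left out is not given in the sources used here. The 10 hepatocyte markers together reached 151321 to 190320 CPM in wild-type livers, 45427 to 51720 CPM in Ndrg3 LKO replicates 1 to 4 and 166016 CPM in replicate 5. The part of this difference in the members' CPM was not tested, and ratios between genes of the same library, given further on, do not depend on it.

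The start regions of *Prom1*, *Cldn4*, *Spp1* and *Epcam*, the members with the largest ratios between the group means, are shown here so that the letters upstream of each gene can be read beside its values. They were taken from RefSeq (table of build GRCm38.p6), which held 6 of the 8 members with 8 starts, and each window matched a single place in mm9, whose coordinates are given. *Krt19* and *Sox9* were not in the table. Sequences run 5′ to 3′ on the gene's strand, and position -1 is the base just before the start. The search covered both strands of the 250 bases upstream for TGGGAA (RBPJ), GGAATG (TEAD), ACAAAG (SOX), TGANTCA (AP-1), GGGCGG (KLF and SP) and TATAAA (the TATA box), and matches are in capitals. Of 32851 promoters in the table, 21.6% held TGGGAA, 12.6% GGAATG, 16.5% ACAAAG, 6.75% TGANTCA, 32.7% GGGCGG and 12.4% TATAAA.
*Prom1*, first start, 30 bases from -99 to -70 with only the AP-1 letters in capitals, chr5:44493045-44493074, minus strand: tcccgtggtccTGACTCAggcacccttagc
*Prom1*, second start, chr5:44486008-44486257, minus strand: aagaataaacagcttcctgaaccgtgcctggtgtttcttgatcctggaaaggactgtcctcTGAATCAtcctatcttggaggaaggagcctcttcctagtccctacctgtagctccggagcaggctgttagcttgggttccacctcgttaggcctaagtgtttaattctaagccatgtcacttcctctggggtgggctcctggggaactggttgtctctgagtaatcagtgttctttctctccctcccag
*Cldn4*, chr5:135422805-135423054, minus strand: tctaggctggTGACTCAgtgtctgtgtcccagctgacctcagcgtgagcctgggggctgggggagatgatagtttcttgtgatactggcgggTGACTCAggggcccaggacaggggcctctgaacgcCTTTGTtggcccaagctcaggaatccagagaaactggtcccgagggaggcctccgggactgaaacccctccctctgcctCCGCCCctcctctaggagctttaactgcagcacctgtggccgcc
*Spp1*, first start, chr5:104863880-104864129, plus strand: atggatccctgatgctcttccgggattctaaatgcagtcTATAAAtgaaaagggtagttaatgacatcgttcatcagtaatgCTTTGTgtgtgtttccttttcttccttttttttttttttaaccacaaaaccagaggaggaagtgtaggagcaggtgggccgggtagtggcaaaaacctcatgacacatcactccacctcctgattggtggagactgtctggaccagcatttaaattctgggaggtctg
*Epcam*, chr17:88035069-88035318, plus strand: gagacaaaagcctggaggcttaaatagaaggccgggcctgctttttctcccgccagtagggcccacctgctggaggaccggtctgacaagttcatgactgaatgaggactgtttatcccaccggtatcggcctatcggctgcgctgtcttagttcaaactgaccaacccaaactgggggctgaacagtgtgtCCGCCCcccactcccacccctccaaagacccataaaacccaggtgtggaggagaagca

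Both *Prom1* starts and the *Cldn4* start had TGANTCA upstream, as TGACTCA at -88 and TGAATCA at -189 for *Prom1* and as TGACTCA at -240 and -158 for *Cldn4*. The first *Prom1* start also had TTCCCA, which is TGGGAA on the other strand, at -116 and GGGCGG at -62. The first *Spp1* start had TATAAA at -211 and CTTTGT, the SOX letters on the other strand, at -168. Its second start, not shown, had CTTTGT at -243 and no TATAAA. *Epcam* had 1 match, CCGCCC at -58, *Krt7* had 4 matches to GGGCGG, and *Krt23* had none of the letters searched. The second *Prom1* start lies at the first base of an exon that its other transcripts share, so the window upstream is intronic. These are matches of letters, and no binding was measured.

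*Prom1* was the member that differed most between the groups. It encodes prominin-1 (CD133), a membrane protein of cell protrusions that marks progenitor cells in liver and other organs, and it spans chr5:44384864-44493271 on the minus strand of mm9. Wild-type replicates 1 to 5 had 0.618, 1.07, 0.780, 0.460 and 0.298 CPM, from 5 to 22 counts. Ndrg3 LKO replicates 1 to 5 had 22.1, 12.2, 22.8, 4.10 and 8.91 CPM, from 144 to 886 counts. Every Ndrg3 LKO liver lay above every wild-type liver, a pattern that 15.5% of the 11208 genes tested showed. The means were 0.646 ± 0.300 and 14.0 ± 8.21 CPM (SD, n = 5 each), and *Prom1* rose by 4.42 on the log2 scale (SE 0.51, edgeR adjusted p = 5.55e-05), a fold of 21.4 and place 37 among all genes tested by log2 fold change. A 2-sided exact permutation test over the 252 splits of the livers gave p = 0.00794, the smallest this design allows. In tissue RNA, more cells of a type and more RNA per cell cannot be told apart, and this holds for all members.

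The rise of *Prom1* was uneven, with a 5.55-fold spread within the Ndrg3 LKO group and the lowest level in replicate 4, not in replicate 5. *Prom1* passed the filter on low counts through the Ndrg3 LKO livers alone, since 0 of 5 wild-type libraries and 5 of 5 Ndrg3 LKO libraries reached 1 CPM before TMM. Without any filter its adjusted p in edgeR was 2.33e-05. The first exon of *Prom1* overlaps *Gm16401*, a gene on the opposite strand, so reads in this stretch are uncertain where strand was not used in the counting.

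**Figure D1:**
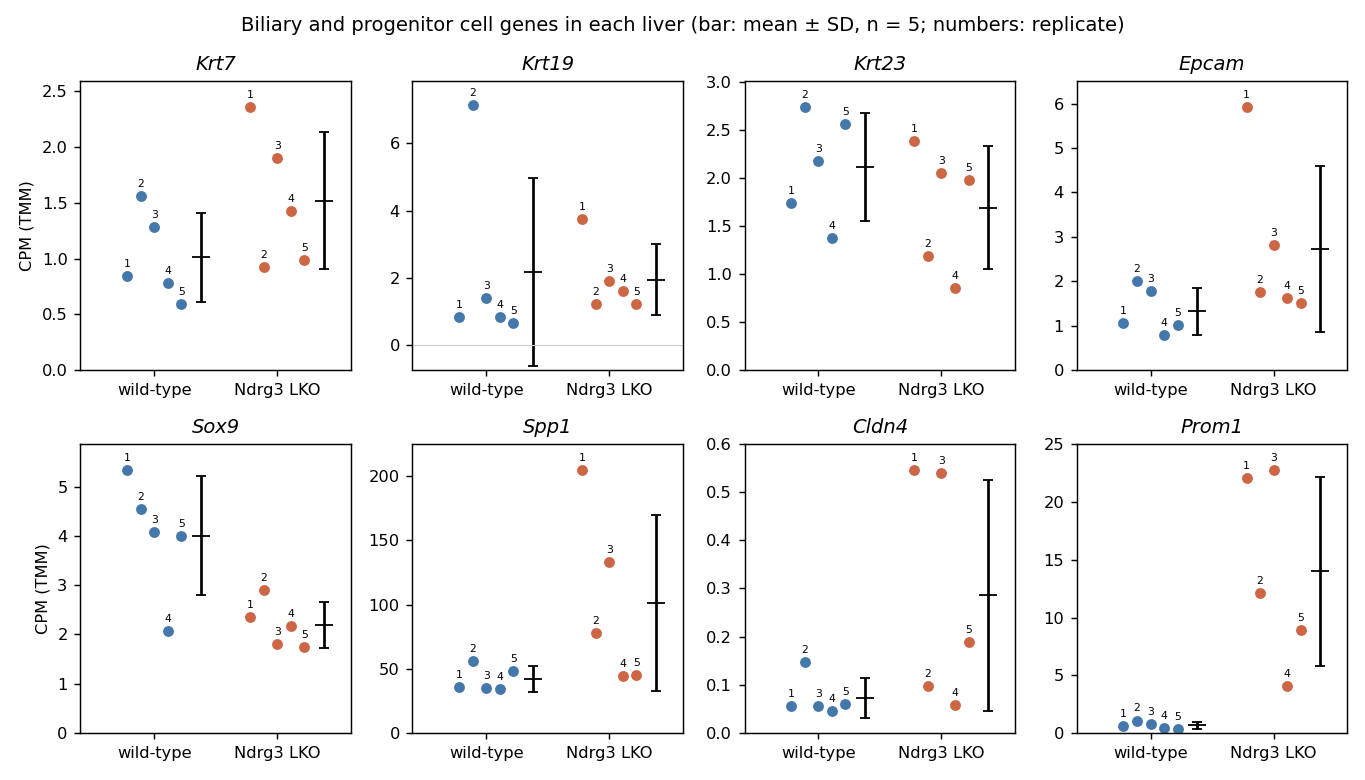
Level of each member in each liver, in CPM after TMM on a linear axis; each point is 1 liver with its replicate number, and the black bar is the mean ± SD of the 5 livers of a group. Prom1 is the member whose groups do not overlap, from 0.298 to 1.07 CPM in wild-type and from 4.10 to 22.8 CPM in Ndrg3 LKO livers, and wild-type replicate 2 stands alone at 7.14 CPM of Krt19.

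*Spp1* had the highest level per kilobase of the members in both groups and rose in Ndrg3 LKO livers. It encodes osteopontin, a secreted phosphoprotein that binds integrins and CD44 and is made by cholangiocytes and by macrophages, and it lies at chr5:104864137-104870069 on the plus strand. Wild-type replicates 1 to 5 had 35.9, 56.4, 35.2, 34.0 and 48.1 CPM, and Ndrg3 LKO replicates 1 to 5 had 205, 78.0, 134, 44.2 and 45.4 CPM. Replicates 1, 2 and 3 lay above all wild-type livers, and replicates 4 and 5 lay within the wild-type range. The log2 fold change was 1.27 (SE 0.39, edgeR adjusted p = 0.0181), a fold of 2.42. The exact permutation test gave p = 0.0556. The call was lost without Ndrg3 LKO replicate 1, the highest liver, where the log2 fold change was 0.85 and the edgeR adjusted p 0.0501, and it held without replicate 5 (1.45, edgeR adjusted p = 0.00457).

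Markers of macrophages were also higher in the Ndrg3 LKO group. All 8 Kupffer cell and macrophage markers rose, beside 25.6% of all genes tested that rose, and none was at 0. The summed level of the 8 markers was 81.2 to 207 CPM in wild-type and 184 to 573 CPM in Ndrg3 LKO livers. Replicates 1 and 3 of the Ndrg3 LKO group had the highest sums, 573 and 572 CPM, and also the highest *Spp1*. The other livers did not follow this order, since replicate 2, next in *Spp1* at 78.0 CPM, had the lowest sum of its group at 184 CPM, and replicate 4, with the lowest *Spp1* at 44.2 CPM, had 301 CPM. The 5 markers of lipid-associated macrophages, a state that makes much *Spp1*, summed to 8.55 to 14.3 CPM in wild-type and 65.8 to 93.6 CPM in Ndrg3 LKO livers, with the highest sum in replicate 2. Most of this sum was *Cd9*, a gene of many cell types and the only 1 of the 5 tested with all livers, with means of 11.6 and 76.5 CPM. *Trem2*, *Gpnmb*, *Mmp12* and *Itgax* had means of 0.0406 to 0.407 CPM in wild-type and 0.953 to 2.08 CPM in Ndrg3 LKO livers. Without Ndrg3 LKO replicate 5, *Gpnmb* passed the filter through the Ndrg3 LKO livers alone. In that fit *Gpnmb* rose by 4.72 on the log2 scale (edgeR adjusted p = 1.09e-05). Per count of the 8 macrophage markers, *Spp1* had 0.273 to 0.443 counts in wild-type and 0.147 to 0.425 in Ndrg3 LKO libraries, which overlapped (exact permutation p = 0.143). The part of macrophages in the rise of *Spp1* was not tested.

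**Figure D2:**
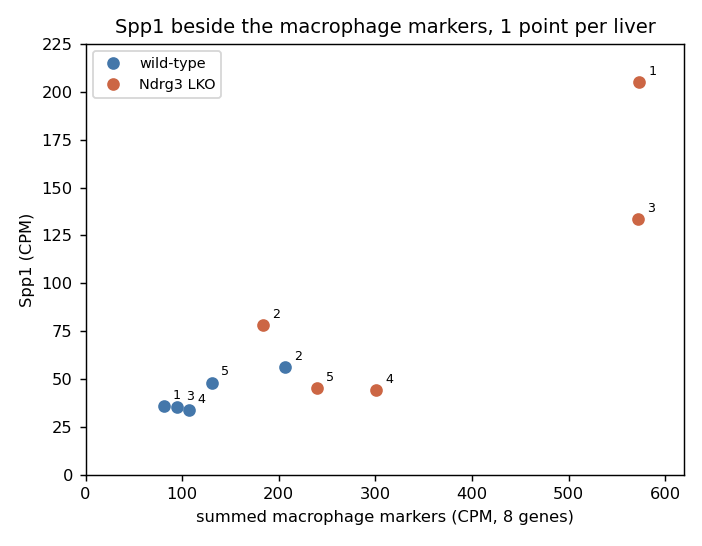
Spp1 in CPM against the summed CPM of 8 macrophage markers, with 1 point per liver and the replicate number beside it. Ndrg3 LKO replicates 1 and 3 lie highest on both axes, at 205 and 134 CPM of Spp1 beside 573 and 572 CPM of macrophage markers, and the other livers lie at 78.0 CPM of Spp1 or less.

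*Epcam* was higher in the mean of the Ndrg3 LKO livers but missed the threshold. It encodes the epithelial cell adhesion molecule, which adult hepatocytes lack and duct and progenitor cells carry, and it lies at chr17:88035319-88050446 on the plus strand. Wild-type replicates 1 to 5 had 1.07, 2.0, 1.78, 0.781 and 1.01 CPM, and Ndrg3 LKO replicates 1 to 5 had 5.92, 1.77, 2.83, 1.62 and 1.51 CPM. All 5 Ndrg3 LKO livers lay above the wild-type mean of 1.33 CPM, and replicates 1 and 3 lay above all wild-type livers. The log2 fold change was 1.04 (SE 0.42, edgeR adjusted p = 0.0587), with an exact permutation p of 0.0794. It passed without Ndrg3 LKO replicate 5, at 1.17 with an edgeR adjusted p of 0.0315, and was 0.55 without replicate 1, with an edgeR adjusted p of 0.195.

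*Cldn4*, a claudin of tight junctions in ducts and other simple epithelia, was close to the limit of detection. It is a single-exon gene at chr5:135420996-135422804 on the minus strand. Wild-type libraries held 1, 3, 1, 1 and 1 counts, all at or below the 3-count limit. Ndrg3 LKO libraries held 19, 4, 21, 2 and 4 counts, so that replicates 1 and 3 gave most of the signal. *Cldn4* failed the filter on low counts and was not tested with the other genes. Its summed counts, 50 against 7, gave a ratio of 3.95 per effective library size, with an exact 95% interval of 1.78 to 10.3 that covers counting error only. The exact permutation test over livers gave p = 0.0635.

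None of the 3 keratin members passed the test in edgeR with TMM or in limma, and 0 of 3 had an unadjusted edgeR p under 0.05. DESeq2 called neither *Krt7* nor *Krt23* and gave no adjusted p for *Krt19*, and with library sizes alone *Krt7* passed in edgeR at 1.13 (edgeR adjusted p = 0.0168). *Krt7* and *Krt19* encode type II and type I keratins of duct epithelium, and *Krt23* a type I keratin that is low in normal liver. *Krt7* (chr15:101241474-101260744, plus strand) had 0.842, 1.56, 1.28, 0.781 and 0.595 CPM in wild-type replicates 1 to 5 and 2.36, 0.920, 1.90, 1.42 and 0.990 CPM in Ndrg3 LKO replicates 1 to 5. Only replicates 1 and 3 lay above the wild-type range, and the log2 fold change was 0.59 (SE 0.34, edgeR adjusted p = 0.171).

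*Krt19* (chr11:100002124-100009979, minus strand) turned on a single liver. Wild-type replicate 2 had 7.14 CPM from 146 counts, and the other wild-type livers had 0.842, 1.39, 0.827 and 0.655 CPM. Ndrg3 LKO replicates 1 to 5 had 3.76, 1.24, 1.90, 1.62 and 1.23 CPM. With all livers, the log2 fold change was -0.16 (SE 0.63, edgeR adjusted p = 0.85), and without wild-type replicate 2 it was 1.05 (edgeR adjusted p = 0.0508), so that its direction turned. In this liver *Krt7* and *Epcam* were also the highest of the wild-type group, but stayed below 3 CPM at 1.56 and 2.0 CPM. Mesothelial markers, which accompany another source of *Krt19*, summed to 3.57 CPM in it and to 1.61 to 10.4 CPM over the wild-type group, with the highest sum in replicate 3. *Krt23* (chr11:99339288-99354451, minus strand) ranged from 1.38 to 2.74 CPM in wild-type and from 0.855 to 2.38 CPM in Ndrg3 LKO livers, with a log2 fold change of -0.32 (SE 0.31, edgeR adjusted p = 0.399).

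*Sox9* went the other way and fell. It encodes the transcription factor that patterns embryonic bile ducts and stays on in adult ducts and in a few hepatocytes beside them, and it lies at chr11:112643538-112649074 on the plus strand. Wild-type replicates 1 to 5 had 5.33, 4.55, 4.07, 2.07 and 3.99 CPM, and Ndrg3 LKO replicates 1 to 5 had 2.36, 2.91, 1.80, 2.16 and 1.74 CPM. The groups overlapped through wild-type replicate 4, and all 5 Ndrg3 LKO livers lay below the wild-type mean of 4.0 CPM. The log2 fold change was -0.86 (SE 0.26, edgeR adjusted p = 0.0157), with an exact permutation p of 0.0317. With library sizes alone, where the median gene moved by 0.56 instead of 0.031, *Sox9* was at -0.29 (edgeR adjusted p = 0.377), which is -0.85 relative to that median.

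In all, 7 of the 8 members were tested and 3 were called at an adjusted p under 0.05, against 48.6% of all genes tested. The 2 that rose, *Prom1* and *Spp1*, stand beside 25.6% of all genes that rose, and the 1 that fell, *Sox9*, beside 23.0% that fell. *Prom1* is included in these counts, but it passed the filter through the Ndrg3 LKO livers alone, so its call is not taken as support. Without Ndrg3 LKO replicate 5, 4 of 7 members were called, 3 higher, *Epcam* now among them, and 1 lower, against 55.6% of all genes, 28.4% higher and 27.2% lower. For no member did all Ndrg3 LKO livers lie below the wild-type range, as they did for 16.0% of the genes tested. Calls were about as frequent among the members as among all genes. The median log2 fold change of the 7 members was 0.59, and that of all genes tested 0.031.

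**Figure D3:**
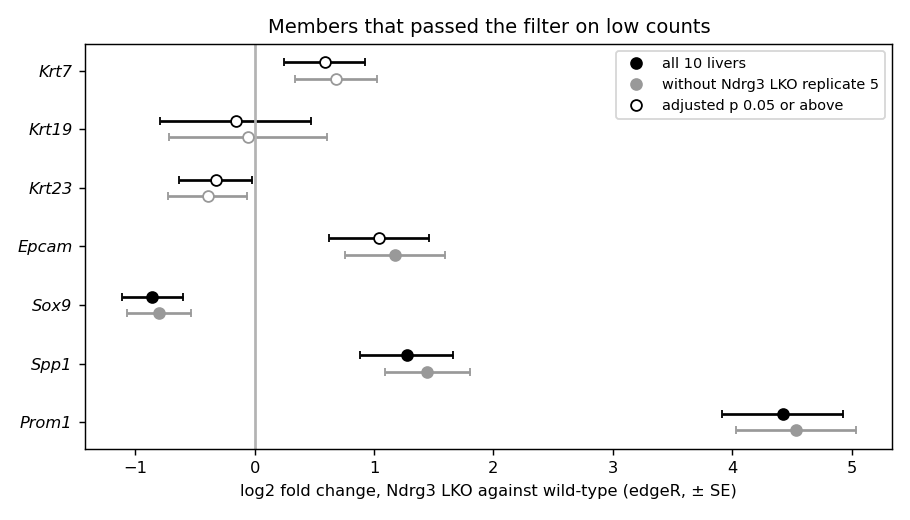
Log2 fold change of the 7 tested members, Ndrg3 LKO against wild-type, from edgeR with its SE, for all 10 livers (black) and without Ndrg3 LKO replicate 5 (grey); open points have an adjusted p of 0.05 or above. Prom1 stands apart at 4.42, Spp1 lies at 1.27, Sox9 at -0.86, and Epcam is filled only without replicate 5.

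The members did not keep their proportions within a library. Counts were divided by the *Epcam* count of the same library, or by summed duct genes, in 15 ratios chosen after the values had been seen. The ratios reuse the counts behind the rise of *Prom1* and the fall of *Sox9*, so their p-values are no separate support for either. Per *Epcam* count, *Prom1* had 0.294 to 0.588 counts in wild-type and 2.53 to 8.05 in Ndrg3 LKO libraries, with no overlap (exact permutation p = 0.00794, adjusted over the ratios 0.0238). *Sox9* had 2.27 to 5.0 counts per *Epcam* count in wild-type and 0.398 to 1.64 in Ndrg3 LKO libraries, also without overlap and with the same p-values by the exact permutation test. *Spp1* overlapped, at 19.7 to 47.5 and 27.2 to 47.2 counts per *Epcam* count, with a log2 difference of 0.12 (exact permutation p = 0.675). *Krt19* (exact permutation p = 0.310) and *Krt7* (exact permutation p = 0.183) also overlapped between the groups. Set against the sum of *Krt7*, *Krt19* and *Epcam*, *Prom1* still had no overlap, at 0.101 to 0.224 and 0.878 to 3.43 counts (exact permutation p = 0.00794), while *Sox9* overlapped (exact permutation p = 0.0317, adjusted over the ratios 0.0794).

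**Figure D4:**
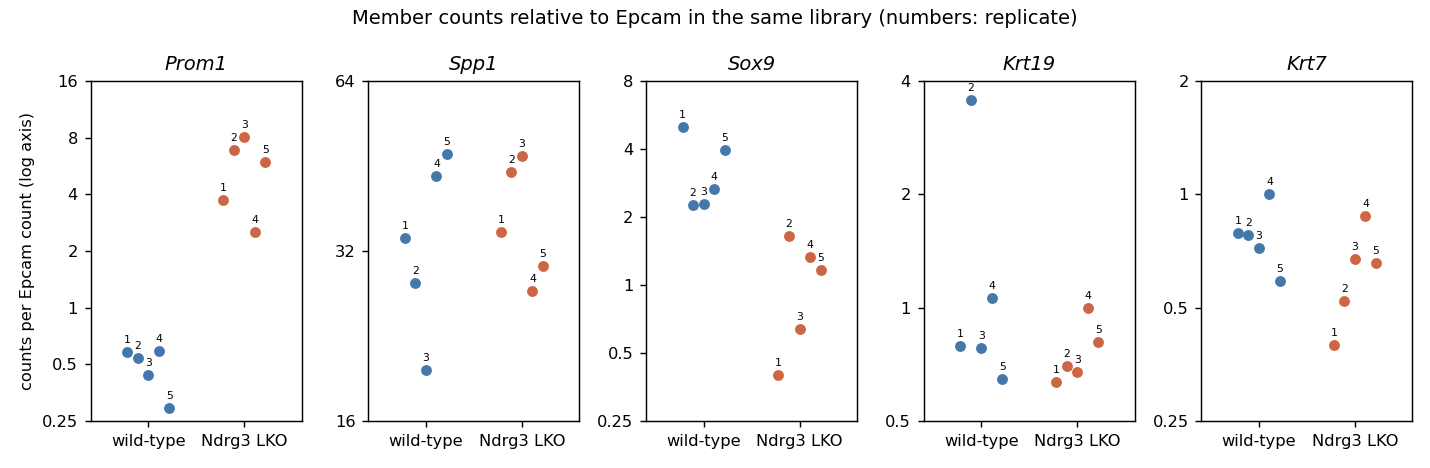
Counts of Prom1, Spp1, Sox9, Krt19 and Krt7 per Epcam count in the same library, on log axes that differ between panels; each point is 1 liver with its replicate number. The groups separate for Prom1 (0.294 to 0.588 against 2.53 to 8.05) and Sox9 (2.27 to 5.0 against 0.398 to 1.64) and overlap for Spp1, Krt19 and Krt7.

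Some livers kept a similar rank across the members. Wild-type replicate 2 was the highest of its group in 7 of 8 members and among the top 2 in all 8, and wild-type replicate 4 was among the lowest 2 in all 8, although for *Cldn4* it held 1 count like 3 other livers and its rank there comes from the scaling. Wild-type replicate 5 was among the top 2 in 3 members and among the lowest 2 in 5. Ndrg3 LKO replicate 1 was the highest of its group in 6 of 8 members and among the top 2 in all 8, followed by replicate 3, which was among the top 2 in 7. Replicates 4 and 5 of the Ndrg3 LKO group were never among the top 2. Summed over the 8 members, levels ran from 40.3 to 75.6 CPM in wild-type livers and were 244, 98.3, 167, 56.1 and 61.9 CPM in Ndrg3 LKO replicates 1 to 5, of which *Spp1* alone gave 205, 78.0, 134, 44.2 and 45.4 CPM. Over the 10 livers, the closest pair of member profiles was *Krt7* and *Epcam*, with a root mean square difference of 0.307 on the centred log2(CPM + 1) scale, and the farthest was *Sox9* and *Prom1*, at 2.64.

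The members were set in order of level as CPM per kilobase of merged exons. In wild-type livers *Spp1* led with a mean of 25.4 CPM per kilobase and did not overlap the next gene. *Krt23* at 1.35, *Krt19* at 1.17, *Sox9* at 0.968 and *Epcam* at 0.652 CPM per kilobase followed, and neighbours in this order overlapped. *Krt7* at 0.144, *Prom1* at 0.143 and *Cldn4* at 0.0402 CPM per kilobase came last, again with overlap between neighbours, and *Epcam* lay above *Krt7* in every liver. In Ndrg3 LKO livers *Spp1* still led, at 61.4 CPM per kilobase, and *Prom1* came second at 3.10 CPM per kilobase, at place 2 of 8 instead of 7, overlapping *Epcam*. *Epcam* at 1.34, *Krt23* at 1.08, *Krt19* at 1.05 and *Sox9* at 0.531 CPM per kilobase followed with overlap between neighbours, and *Krt7* at 0.215 and *Cldn4* at 0.158 CPM per kilobase were last. The merged exons of *Krt7* are 7049 bp and its longest coding transcript 4094 bp, and dividing by the longest coding transcript exchanged the places of *Krt19* and *Krt23* and kept the others.

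Other genes of the biliary and progenitor program were described from lists. Of 79 such genes, 47 were tested, of which 16 rose and 5 fell, beside 25.6% of all genes that rose and 23.0% that fell. These shares of all genes also stand beside the counts of each list that follows. Both tested simple epithelial keratins rose. *Krt18* went from 137 ± 21.3 to 388 ± 134 CPM and *Krt8* from 194 ± 33.1 to 545 ± 135 CPM (SD, n = 5 each), with log2 fold changes of 1.51 and 1.49 (edgeR adjusted p = 0.00038 and 0.000149). These keratins pair with each other and are made by hepatocytes as well as by duct cells. Of 3 tested biliary transcription factors, *Onecut2* fell (log2 fold change -0.45, edgeR adjusted p = 0.00977), though with library sizes alone it was at 0.088 (edgeR adjusted p = 0.681). Of 4 tested junction and surface genes, *Itga6*, a laminin receptor subunit, rose by 1.16 on the log2 scale (edgeR adjusted p = 0.0148), though limma with quantile normalization gave 0.47 (adjusted p = 0.0849), and the cadherin gene *Cdh1* was at -0.046 (edgeR adjusted p = 0.823). Of 6 tested claudins 0 were called by edgeR and limma, and 1, *Cldn5*, a claudin of endothelium, had an unadjusted edgeR p under 0.05 and was called by DESeq2. The gene with the highest mean CPM among them, *Cldn12*, was at -0.14 (edgeR adjusted p = 0.391). The list held 11 claudins, and those below the filter were not tested. One of these, *Cldn7*, named on sight of its values, had means of 0.586 CPM in wild-type and 1.14 CPM in Ndrg3 LKO livers. Which cells made the tested claudins was not tested.

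All 3 tested bile duct transport genes were called. *Slc10a2*, the sodium-dependent bile acid transporter of ducts and ileum, fell by 3.82 on the log2 scale (edgeR adjusted p = 0.00193), from 12.02 to 17.6 CPM in wild-type livers to 0.145 to 0.431 CPM in Ndrg3 LKO replicates 1 to 4 and 4.81 CPM in replicate 5, without which the log2 fold change was -5.64. *Aqp1*, a water channel of ducts and endothelium, rose by 1.07 (edgeR adjusted p = 0.00191), and *Slc4a2*, an anion exchanger, rose by 0.59 (edgeR adjusted p = 0.00421). *Cftr*, the chloride channel of cholangiocytes, and *Sctr*, the secretin receptor, stayed below 0.23 CPM in every liver and were not tested. Of 4 tested genes of the cholangiocyte cilium, *Pkd1* fell (log2 fold change -1.06, edgeR adjusted p = 0.03), a call lost without wild-type replicate 1 or 4 or Ndrg3 LKO replicate 1 or 4 (edgeR adjusted p = 0.0675 to 0.0888) and with library sizes alone (-0.50, edgeR adjusted p = 0.301), and *Pkd2* was at 0.27 (edgeR adjusted p = 0.336), or 0.41 without Ndrg3 LKO replicate 5 (edgeR adjusted p = 0.0496).

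Of 7 tested progenitor genes, 3 rose and 1 fell. *Tnfrsf12a*, the receptor for the cytokine TWEAK that drives ductular reactions, rose by 3.02 on the log2 scale (edgeR adjusted p = 0.000121), from 8.64 to 18.2 CPM in wild-type livers to 26.8 to 143 CPM in Ndrg3 LKO livers, with no overlap. Its ligand gene *Tnfsf12* was at -0.43 (edgeR adjusted p = 0.235). *Icam1*, an adhesion molecule of activated cells, rose by 2.18 (edgeR adjusted p = 0.0011) and *Cd44*, a hyaluronan and osteopontin receptor, by 1.38 (edgeR adjusted p = 0.0045). Without Ndrg3 LKO replicate 5, 5 rose, the added ones being *Lgr5* and *Tnfrsf19*. The gene that fell was *Lgr4*, a receptor for R-spondins, at -1.15 (edgeR adjusted p = 0.00862). These 3 genes were named on sight of their values.

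Of 11 tested Notch pathway genes, 5 rose and 1 fell. Notch signalling drives hepatoblasts toward the biliary fate through RBPJ. *Nrarp*, a feedback regulator, rose by 1.82 on the log2 scale (edgeR adjusted p = 0.0154), the ligand gene *Dll1* by 1.35 (edgeR adjusted p = 0.00253) and the target gene *Hes1* by 1.08 (edgeR adjusted p = 0.00779). *Nrarp* is among the 5 that rose, but it passed the filter on low counts through the Ndrg3 LKO livers alone. Its wild-type libraries held 3 to 13 counts and its Ndrg3 LKO libraries 32 to 91, so its call is not taken as support. Ndrg3 LKO replicate 5 had the highest *Nrarp* and *Dll1*, and without it their rises were 1.15 and 1.12 (edgeR adjusted p = 0.0175 and 0.00286). With limma and quantile normalization *Nrarp* was at 0.62 (adjusted p = 0.0832) and *Dll4*, a further ligand gene that edgeR called at 1.02, was at 0.46 (adjusted p = 0.132). The other genes called, *Lfng*, *Dll4* and *Rbpj*, were named on sight of their values. *Rbpj* fell with TMM (log2 fold change -0.45, edgeR adjusted p = 0.0441) and was at -0.39 with upper-quartile factors (edgeR adjusted p = 0.0913) and at 0.070 with library sizes alone (edgeR adjusted p = 0.791), and the receptor gene *Notch2* was at 0.050 (edgeR adjusted p = 0.827). Endothelial markers, a cell type that also uses Notch ligands, rose in 5 of 7 tested genes, and their part in these changes was not tested.

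Of 8 osteopontin receptor genes, 4 rose and none fell. Beside *Cd44*, *Itgb3* rose by 1.34 (edgeR adjusted p = 0.00105) and *Itga9* by 1.23 on the log2 scale (edgeR adjusted p = 0.000403), and *Itgb5* was named on sight of its values. *Itgb1*, with the highest mean CPM of those not called, was at 0.19 (edgeR adjusted p = 0.229).

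**Figure D5:**
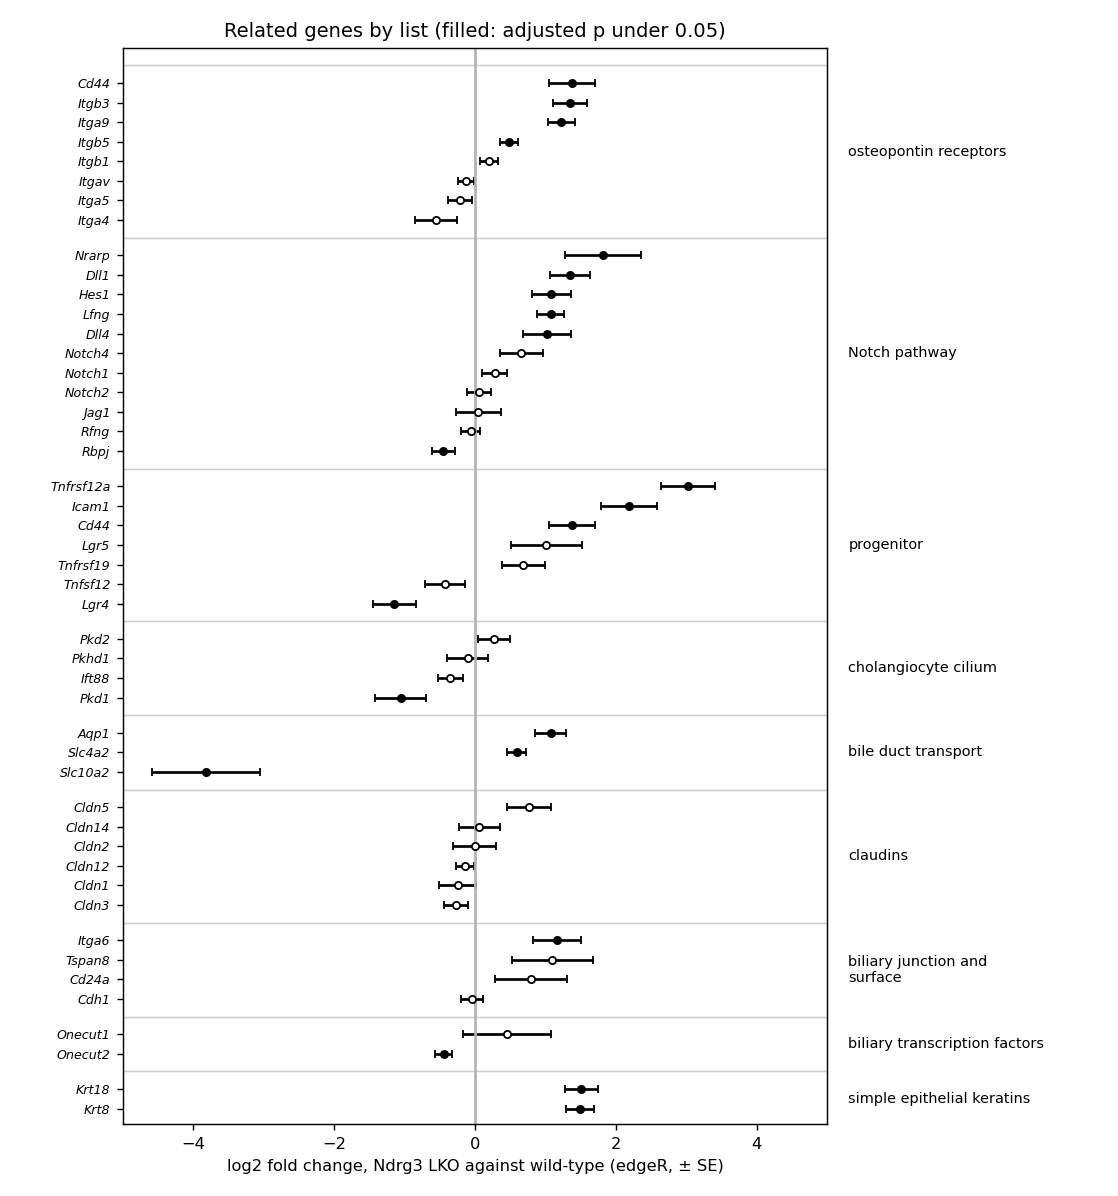
Log2 fold change with its SE from edgeR, Ndrg3 LKO against wild-type, for the tested genes of each list related to the members, apart from 1 gene not reported here; filled points have an adjusted p under 0.05. Tnfrsf12a (3.02) and Slc10a2 (-3.82) lie farthest from 0, and all 6 claudins are open.

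Markers of other cell types were counted with the same fit. Of 10 hepatocyte markers 6 fell, or 8 without Ndrg3 LKO replicate 5, with *Apoa1*, *Fgb* and *Alb* at -2.34, -1.55 and -1.24 (edgeR adjusted p = 0.011, 0.000489 and 0.0437). Without Ndrg3 LKO replicate 5, *Apoa1* was at -3.55 and *Alb* at -2.06. The call of *Alb* was lost without any liver but Ndrg3 LKO replicate 5 (edgeR adjusted p = 0.058 to 0.0999) and under limma with quantile normalization, which gives the top gene of every library the same value. That limma setting also lost the calls of *Trf* (-0.0335, adjusted p = 0.889), *Ttr* (-0.287, adjusted p = 0.331) and *Hpd* (-0.397, adjusted p = 0.0993), all named on sight of their values. It kept those of *Apoa1* and *Fgb* (limma adjusted p = 0.00426 and 0.00906). *Cps1* was at 0.087. Of 8 stellate cell and fibroblast markers 5 rose, led by *Col3a1* at 1.79, and of 7 endothelial markers 5 rose, led by *Lyve1* at 1.99. Of 3 tested mesothelial markers 0 were called by edgeR, DESeq2 or limma and 0 had an unadjusted edgeR p under 0.05, and the one with the highest mean CPM over all livers, *Gpm6a*, was at 0.75, or 1.28 without wild-type replicate 3 (edgeR adjusted p = 0.00617). T and NK cell markers were too low to test, at 5.17 CPM in sum or less. The acinar marker tested, *Cela1*, fell by 1.27 on the log2 scale. Of the intestinal markers, *Fabp2* fell by 1.25, while *Vil1*, named on sight of its values, was at 0.23 to 0.393 CPM in wild-type and 0.707 to 3.53 CPM in Ndrg3 LKO livers. *Vil1* missed the filter on low values with all livers. Without Ndrg3 LKO replicate 5 it passed the filter through the Ndrg3 LKO livers alone, with 5 to 7 counts in wild-type libraries. In that fit *Vil1* rose by 3.04 on the log2 scale (edgeR adjusted p = 1.44e-05), and this call is not taken as support. The parts of these cell types in the members' values were not tested.

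The 5 genes whose profile over the 10 livers was most like the median profile of the 7 tested members were *Src*, *Irf9*, *1110008P14Rik*, *Maml2* and *Rexo2*, with root mean square differences of 0.171 to 0.198 on the centred log2(CPM + 1) scale. Their log2 fold changes lay between 0.30 and 0.59, and 0 of 5 were called by edgeR, DESeq2 or limma or had an unadjusted edgeR p under 0.05.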

How the data were processed

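RNA from 10 livers was sequenced with a stranded mRNA kit after a check of RNA integrity. The authors deposited raw counts per gene symbol, made with STAR on mm9. The file names carry the word CPM, but the values are whole numbers with unequal totals, and they were used as counts. The processing notes name STAR 2.7.3a and the methods another version; the annotation and the strand setting of the counting are not given in the sources used here. Of the 24052 symbols, 6306 had 0 counts in all livers and 20945 were found in the GENCODE annotation of NCBIM37 (mm9), which gave positions and exon lengths.

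Genes that reached 1 CPM in 5 or more livers were tested with the quasi-likelihood test of edgeR 4.0.16 in R 4.3.3, with TMM scaling and Benjamini-Hochberg adjustment over all 11208 genes at a threshold of 0.05. Exact permutation tests were 2-sided, over 252 splits, on log2(TMM-normalized CPM + 1) for single genes and on the log2 ratio of raw counts for the ratios. The SE is the size of the log2 fold change over the root of its F statistic. Named were all members, and from each list the 3 called genes with the largest change and the gene with the highest mean CPM not called. Members, lists and tests were chosen with earlier results of these data known, and the ratios within libraries were added after seeing the data. Controls were littermates, but the litter of each liver is not given. The p-values set the group difference against the spread between livers and treat the livers as independent. Likeness within a litter is therefore not accounted for. On simulated counts with 100 of 11208 genes changed 2-fold and 100 changed 4-fold, the edgeR test of Ndrg3 LKO against wild-type recovered 57 and 98, with 3 false calls. The simulation changed few genes and held no outlying liver, whereas 48.6% of genes were called in the data. Its numbers therefore need not hold for this comparison. No 2 libraries were identical, and the 20 pairs of livers of the same group all differed beyond sampling noise. Alternatives were other scalings, DESeq2 1.42.0, limma 3.58.1 with pseudocounts of 0.1, 1 and 5, other filters, a replicate block and each liver left out. Intervals and the 3-count limit cover counting error only: the reads carry no molecular identifiers, so they do not stand for independent molecules. The metabolome and protein measurements were not analysed here, and 1 related gene is not reported here.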

Additional observations from a re-analysis of the deposited data

Results flagged for a closer look

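In 11 of 100 groups of 5 livers, over the members and the other genes named by the rule, 1 liver lay far from the others of its group, with a gap above 0.71 of the group's range. For independent values with a normal distribution, chance flags about 1 in 20 groups. Here the values were CPM on a linear scale, all flags were on the high side, and the groups share the same livers. Whether 11 flags exceed chance therefore cannot be judged. Among the members, wild-type replicate 2 had 7.14 CPM of *Krt19*, where the other wild-type livers had 0.655 to 1.39 CPM. Ndrg3 LKO replicate 1 had 3.76 CPM of *Krt19*, where the others had 1.23 to 1.90 CPM. Wild-type replicate 2 had 0.147 CPM of *Cldn4*, which is 3 counts against 1 count in each of the other wild-type livers.

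Among the other genes, 5 of the flags fell on Ndrg3 LKO replicate 5, the liver that lay nearest to the wild-type livers on the first principal component. It was the highest of its group for *Alb* at 107851 CPM, *Apoa1* at 13994 CPM, *Slc10a2* at 4.81 CPM, *Itgb3* at 15.1 CPM and *Nrarp* at 4.29 CPM. The first 3 of these lay toward the wild-type level, and *Itgb3* and *Nrarp* lay farther from it than the other Ndrg3 LKO livers. Single wild-type livers stood out with 56.7 CPM of *Cela1* in replicate 5, 3.45 CPM of *Dll1* in replicate 4 and 2.73 CPM of *Gpm6a* in replicate 3.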

How the results depend on the processing

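*Prom1* kept its direction and its call under all 21 alternatives, with edgeR log2 fold changes of 4.18 to 4.67 when single livers were left out; on the log2(CPM + 5) scale of limma it was 1.63, since a pseudocount compresses low genes. The call of *Spp1* was lost without Ndrg3 LKO replicate 1 (0.85) and with the replicate block (1.03, edgeR adjusted p = 0.0612), and that of *Sox9* with library-size scaling. *Epcam* was called under 6 of 20 alternatives, namely DESeq2, upper-quartile factors, library-size scaling and the fits without Ndrg3 LKO replicate 2, 4 or 5, with adjusted p-values of 0.00695 to 0.247 over all of them. Of the members, *Prom1* and *Spp1* alone passed a mean CPM of at least 5. *Krt7* was called with library-size scaling only. *Krt19* reversed to 0.386 with library-size scaling, to 0.147, 0.346 and 0.0117 with limma at pseudocounts of 1, 0.1 and 5, to 0.392 with the replicate block and to 1.05 without wild-type replicate 2 (-0.537 to 1.05 over the livers left out), and DESeq2 gave no adjusted p for it; *Krt23* reversed to 0.195 with library-size scaling. The cause was not tested. Leaving out single livers gave 4703 to 6360 genes called, 2 to 4 members and 19 to 24 related genes. Of the counts called, only that of all genes at an absolute log2 fold change above 1 moved beyond 1.5 times, to 2301 by construction. Library-size scaling called 6839 genes, 85.3% of them higher in Ndrg3 LKO, against 52.6% of 5443 with TMM.

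Both groups carry replicate numbers 1 to 5, but same-numbered livers did not deviate together (correlations of -0.357 to 0.0363, 0 of 5 best with their own number). The numbers thus gave no sign of a pairing, but 5 such correlations cannot exclude a weak effect shared within a litter. With the replicate block, 4412 genes, 2 members and 19 related genes were called. Depth limits most what can be shown for *Cldn4*, with 1 to 3 counts per wild-type library.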
